A study of Mus musculus with 6 samples.

Results

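The expression of 29 genes of cholesterol synthesis and of its control by the transcription factor SREBP2 was examined in mouse small intestine organoids treated with LDL or PBS. Of these genes, 20 encode enzymes that build cholesterol and 9 encode SREBP2 itself or proteins that hold, move, cut or assist it. The genes were listed by symbol and by their known role, with earlier results of these data known, and each matched 1 row of the deposited table of 55416 genes. Organoids were grown from duodenal and jejunal crypts of 3 chow-fed C57BL/6 mice labeled WT, and each mouse gave 1 culture treated with PBS and 1 treated with 50 μg/ml LDL for 5 days, so that the 6 libraries form 3 pairs. The age and sex of the mice are not given in the sources used here. Apart from LDL, all 6 cultures shared their growth medium, a commercial organoid medium, and their Matrigel support. The animal identifier of mouse 3 begins with other letters than those of mice 1 and 2, although its genotype is labeled WT, and results that rest on mouse 3 are therefore also given without it.

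The depth ran from 22061545 to 31073360 reads on genes in a library. Genes with at least 1 read numbered 29285 to 30018 with PBS, and 35781, 29870 and 32751 with LDL in mice 1, 2 and 3. The cause of the higher LDL numbers in mice 1 and 3 was not tested. Every one of the 29 genes was well covered, with 166 to 7926 reads in any library, and all 29 passed the filter on low values (a mean normalized count of at least 10). Values are normalized counts, that is, a gene's reads divided by the size factor of its library. The labeled tissue was checked against its markers: 8 epithelial genes (Epcam, Cdh1, Krt8, Krt18, Krt19, Vil1, Cdx2 and Cdh17) summed to 100810 to 103324 normalized counts in PBS-treated and 111565 to 143983 in LDL-treated organoids. In contrast, 8 stromal genes summed to 44.8 to 85.7 with PBS and 30.9 to 89.0 with LDL, with Dcn at 0 in all PBS-treated libraries, and 8 immune genes summed to 271 to 317 and 255 to 320. Of the stromal genes, Col1a1, Col1a2, Col3a1, Dcn, Lum and Pdgfra were each under 10 normalized counts in every library. Pdgfrb ran from 9.76 to 29.8 and Acta2 from 13.8 to 51.0.

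Cells build cholesterol from acetyl-CoA. Acetyl units are joined and reduced to mevalonate, mevalonate is phosphorylated and trimmed to a branched isoprene unit, isoprene units are joined to farnesyl diphosphate and squalene, and squalene is closed into rings and trimmed to cholesterol. The supply is set largely by SREBP2, a transcription factor made as a membrane protein of the endoplasmic reticulum. When membranes hold little sterol, SCAP escorts SREBP2 to the Golgi, where 2 proteases release its active part, and the genes of the pathway are transcribed. When sterol is plentiful, INSIG proteins keep SCAP and SREBP2 in place. Cholesterol delivered by LDL is a classical signal that lowers SREBP2 activity in cultured cells, and the intestinal epithelium is among the tissues known to make much of the body's cholesterol. The comparison of LDL- with PBS-treated organoids shows how far the transcripts of this pathway differed between the 2 treatments.

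The mean differences between LDL- and PBS-treated organoids lay within 1.5-fold for all 29 transcripts. By limma on log2(normalized count + 1), adjusted by the Benjamini-Hochberg method over 18459 genes, 0 of 29 genes passed an adjusted p-value of 0.05 with a change of more than 1.5-fold in either direction, against 0.878% of all genes tested called higher and 0.395% called lower. DESeq2 and edgeR with TMM on the recovered reads also called 0 of 29 at these thresholds, each with and without the mouse as a block. At an unadjusted p-value under 0.05, limma gave 4 of 29 genes, against 19.7% of all genes. When the mouse was added as a block, so that each LDL-treated library was compared with the PBS-treated library of its own mouse, limma still called 0 of 29 at more than 1.5-fold, against 5.68% of all genes higher and 3.46% lower, and 11 of 29 had an unadjusted p-value under 0.05, against 30.1% of all genes. With the block and no limit on the fold, Hsd17b7 passed as higher, against 8.27% of all genes, and Mvk, Insig1 and Erlin1 passed as lower, against 7.45% of all genes. Without mouse 3, the block gave adjusted p-values of 0.219 for Hsd17b7, 0.128 for Mvk, 0.323 for Insig1 and 0.260 for Erlin1, so that 0 of 29 passed at any fold. Their log2 differences without mouse 3 were 0.40, -0.58, -0.30 and -0.33, compared with 0.44, -0.53, -0.33 and -0.31 with all 3 mice.

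The intervals also bounded the differences. Without the block, the 95% interval of the LDL effect lay within 2-fold for all 29 genes and within 1.5-fold for 20 of them. With the block these counts were 29 and 27. The median of the log2 differences was -0.12 over the 29 genes and -0.02 over all genes tested, with 18 genes lower and 11 higher in LDL-treated organoids. Without regard to sign, the median difference of the 29 genes was 0.18 on the log2 scale, compared with 0.20 for all genes tested and 0.15 for the 9884 genes expressed at least as highly as the lowest of the 29. By direction in the mice, 15 of 29 genes were lower with LDL in each of the 3 mice, against 26.8% of all genes, and 5 of 29 were higher in each mouse, against 24.2%. In mice 1, 2 and 3 respectively, 16, 23 and 18 of the 29 genes were lower with LDL, while 53.8%, 49.7% and 51.7% of all genes tested were. Of the 9884 genes expressed at least as highly as the lowest of the 29, 58.4%, 48.8% and 59.4% were lower. By the mean difference, 52.4% of all genes tested and 57.2% of the 9884 were lower. The groups did not overlap for Hsd17b7, with all LDL-treated libraries higher (11.9% of all genes), and for Mvk, with all LDL-treated libraries lower (12.3% of all genes).

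**Figure D1:**
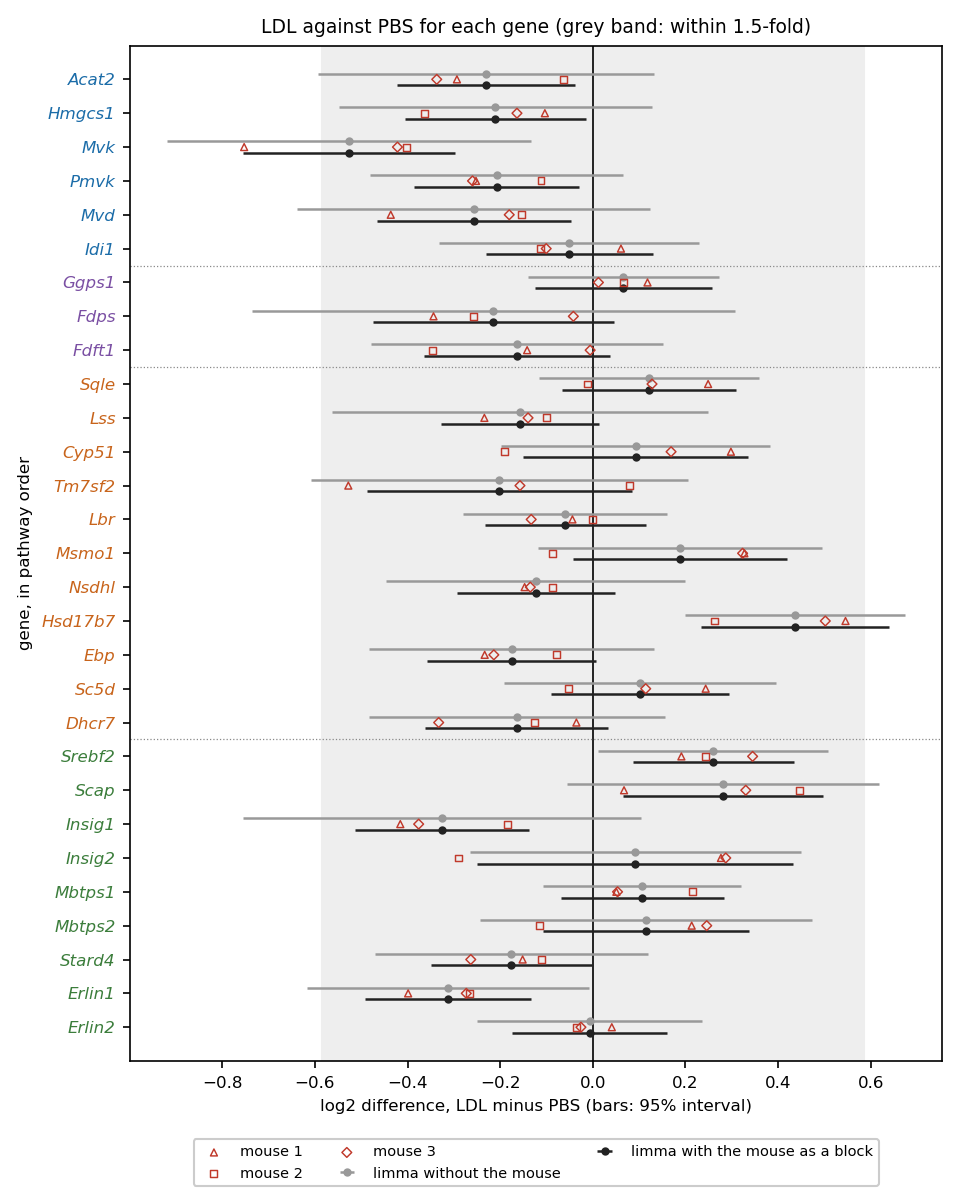
Log2 difference between LDL and PBS on the horizontal axis for the 29 genes in pathway order, with the mean and its 95% interval from limma without the mouse (grey) and with the mouse as a block (black), and the difference in each of the 3 mice as open symbols. The grey band spans 1.5-fold in either direction, and all means lie inside it, with Mvk farthest to the left at -0.53 and Hsd17b7 farthest to the right at 0.44.

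Promoter sequences were read for those of the 29 genes with an entry in the reference used. The RefSeq promoter table, whose windows run from 250 bases before to 50 after a transcript start and were taken from GRCm38.p6, held 32 windows for 24 of the 29 genes. Fdps, Fdft1, Sqle, Stard4 and Erlin2 had no entry. The sterol element TCACNCCAC was found on either strand in 1 of the 32 windows (3.12%), that of Hmgcs1, compared with 1.24% of 32851 promoters in the table. The box CCAAT, which the factor NF-Y binds, was found in 22 windows of 20 genes (68.8%), compared with 37.4% of all promoters. The GC box GGGCGG, a site of Sp1-type factors, was found in 26 windows of 21 genes (81.2%), compared with 35.7%. Windows of 1 gene can overlap, and these matches are a description of letters only.

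The promoters of Mvk, Hmgcs1, Hsd17b7 and Insig1 are printed. Those of Erlin1, which also passed with the block, are not. Each window of Erlin1 held 1 CCAAT box and no sterol element. In the sequences printed here, capitals mark the sterol element (Hmgcs1 only) and CCAAT or its reverse complement ATTGG. Positions count from the transcript start, with -1 as the last base before it. Each window matched GRCm39, the build of the deposited data, exactly at 1 place on its chromosome.

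The first stretch of the pathway, from acetyl-CoA to the isoprene unit, was lower with LDL in all 6 of its genes (52.4% of all genes tested). In each of the 3 mice, 5 of the 6 were lower, against 26.8% of all genes. By limma, 0 of 6 were called without the block, and with it 1, Mvk, passed as lower at any fold (7.45% of all genes). With the block, 5 of 6 had an unadjusted p-value under 0.05 in limma, against 30.1% of all genes. The median log2 difference was -0.22. The summed normalized counts of the 6 genes were 17074, 22073 and 17718 in the PBS-treated organoids of mice 1, 2 and 3 and 15477, 19044 and 15474 in the LDL-treated organoids, so that LDL gave 0.906, 0.863 and 0.873 of the PBS value in the 3 mice. The sum was lower with LDL within each mouse, but the range of the LDL group overlapped that of the PBS group.

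Mvk encodes mevalonate kinase, which adds the first phosphate to mevalonate (ENSMUSG00000041939, GRCm39 chr5:114582267-114601803, plus strand). Its normalized count was 835, 1015 and 825 in PBS-treated and 495, 768 and 615 in LDL-treated organoids of mice 1, 2 and 3. All LDL-treated libraries lay below all PBS-treated ones, and mouse 1 showed the widest gap. On the log2 scale the difference was -0.53 ± 0.17 (SE, n = 3 mice), which did not pass without the block (limma, adjusted p = 0.149) and passed with it (limma, adjusted p = 0.0116, SE 0.10). With the LDL library of mouse 2 left out, Mvk was called without the block, with a log2 difference of -0.68 and a limma adjusted p of 0.0141. In the promoter of Mvk, shown because the gene passed with the block, the CCAAT box occurred 5 times in either orientation, starting at -173, -120, -67, -50 and -14 (GRCm39 chr5:114582080-114582379, plus strand).

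Mvk: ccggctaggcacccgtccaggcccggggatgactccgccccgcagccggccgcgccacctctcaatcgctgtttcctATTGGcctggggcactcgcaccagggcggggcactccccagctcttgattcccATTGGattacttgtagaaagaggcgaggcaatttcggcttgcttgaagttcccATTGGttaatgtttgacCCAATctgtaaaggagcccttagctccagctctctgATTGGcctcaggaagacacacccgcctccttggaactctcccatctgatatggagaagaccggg

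Hmgcs1 encodes the cytosolic HMG-CoA synthase, which joins acetyl and acetoacetyl units, and is a classical SREBP2 target (ENSMUSG00000093930, GRCm39 chr13:120151915-120170470, plus strand). PBS-treated organoids of mice 1, 2 and 3 held 6226, 8713 and 6453 normalized counts, and LDL-treated organoids 5795, 6769 and 5760. The value was lower with LDL in each mouse, but mouse 2 with LDL was above mice 1 and 3 with PBS, so the groups overlapped. The log2 difference was -0.21 (95% interval -0.55 to 0.13, limma adjusted p = 0.481), and with the block the interval was -0.41 to -0.01 (limma adjusted p = 0.140). The promoter of Hmgcs1 is shown because it held the sterol element, which started at -137, along with CCAAT boxes starting at -237, -176, -45 and 11 (GRCm39 chr13:120151637-120151936, plus strand).

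Hmgcs1: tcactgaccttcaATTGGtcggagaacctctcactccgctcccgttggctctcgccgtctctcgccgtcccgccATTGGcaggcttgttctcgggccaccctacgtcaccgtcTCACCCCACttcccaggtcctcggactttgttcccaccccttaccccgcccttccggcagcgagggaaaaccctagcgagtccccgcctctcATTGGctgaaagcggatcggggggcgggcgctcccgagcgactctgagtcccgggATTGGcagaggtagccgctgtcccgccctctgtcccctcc

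Acat2, which makes the acetoacetyl-CoA that HMG-CoA synthase uses, had a log2 difference of -0.23 (95% interval -0.59 to 0.13). The next 2 enzymes after mevalonate kinase were close to it: Pmvk, phosphomevalonate kinase, differed by -0.21 (-0.48 to 0.06) and Mvd, the decarboxylase that makes isopentenyl diphosphate, by -0.26 (-0.64 to 0.12). All 3 genes were lower with LDL in each of the 3 mice. For Idi1, the isomerase of the isoprene unit, the difference was -0.05 (-0.33 to 0.23), and it was lower in 2 of 3 mice. The interval of Idi1 lay within 1.5-fold, while those of Acat2 and Mvd reached beyond it on the lower side.

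Isoprene units are next joined into longer chains. Ggps1, which makes the geranylgeranyl chain that anchors small GTPases, had nearly the same value in every library, 657 to 718 normalized counts with PBS and 714 to 724 with LDL, and its log2 difference was 0.07 (95% interval -0.14 to 0.27). Fdps, the farnesyl diphosphate synthase, was counted at 257, 393 and 314 with PBS and 202, 328 and 305 with LDL in mice 1, 2 and 3, a log2 difference of -0.21 (-0.74 to 0.31). Fdft1, squalene synthase, the first enzyme committed to sterols, differed by -0.16 (-0.48 to 0.15). Fdps and Fdft1 were each lower with LDL in 3 of 3 mice, by as little as 0.01 on the log2 scale for Fdft1 in mouse 3.

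Several of these genes share long stretches of sequence with pseudogenes or a related gene elsewhere in the genome, between which the counting could split reads. Over at least 500 bases at 95% identity or more, pseudogene copies were found for Fdps, Fdft1, Ggps1 and Idi1, while the match of Acat2 was Acat3, a separate protein-coding gene with a mean of 454 normalized counts. The copy Gm3571 of Fdps was itself counted at a mean of 324 normalized counts over the 6 libraries, and Idi1-ps1, identical to Idi1 over 684 bases, at 1588. When each gene was summed with its copies (Acat2 with Acat3), the log2 differences were -0.23 for Acat2, -0.14 for Fdps, -0.17 for Fdft1, 0.07 for Ggps1 and -0.04 for Idi1, so that each kept its direction.

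The 11 genes from squalene to cholesterol showed no common direction, with 5 higher and 6 lower in LDL-treated organoids and a median log2 difference of -0.06. Their summed normalized counts were 26508, 33006 and 27383 with PBS and 28603, 31453 and 28240 with LDL in mice 1, 2 and 3. LDL thus gave 1.08, 0.953 and 1.03 of the PBS value, and 0 of 11 genes were called without the block.

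Hsd17b7 encodes the 3-ketosteroid reductase that completes the removal of methyl groups from the sterol ring (ENSMUSG00000026675, GRCm39 chr1:169777093-169796813, minus strand). In mice 1, 2 and 3 it was counted at 934, 1029 and 859 with PBS and at 1364, 1234 and 1217 with LDL. All LDL-treated libraries were higher than all PBS-treated ones, by 0.55, 0.26 and 0.50 on the log2 scale in the 3 mice. The log2 difference was 0.44 ± 0.10 (SE, n = 3 mice), the largest positive difference of the 29 genes, and did not pass without the block (limma, adjusted p = 0.0858) but passed with it (limma, adjusted p = 0.0148). DESeq2 on the recovered reads gave an adjusted p of 0.0129 without the block. The promoter of Hsd17b7, shown because the gene passed with the block in the direction opposite to Mvk, held CCAAT boxes starting at -165, -73 and -12 and no sterol element by this search (GRCm39 chr1:169796725-169797024, minus strand).

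Hsd17b7: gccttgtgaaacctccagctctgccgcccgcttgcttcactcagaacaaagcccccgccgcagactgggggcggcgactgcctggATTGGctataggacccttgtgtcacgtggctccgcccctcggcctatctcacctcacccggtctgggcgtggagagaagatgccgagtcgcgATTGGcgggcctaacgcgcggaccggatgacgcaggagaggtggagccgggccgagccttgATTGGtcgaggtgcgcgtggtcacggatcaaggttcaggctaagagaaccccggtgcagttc

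The other genes of these steps did not pass with or without the block. Sqle, squalene epoxidase, the first oxygen-dependent and a rate-limiting step, had 3179, 3962 and 3393 normalized counts with PBS and 3777, 3929 and 3708 with LDL, so that all LDL-treated libraries lay inside the PBS range. Its log2 difference was 0.12 (95% interval -0.12 to 0.36). Msmo1, which oxidizes the methyl groups, differed by 0.19 (-0.12 to 0.49), Cyp51, the lanosterol demethylase, by 0.09 (-0.20 to 0.38) and Sc5d, the lathosterol desaturase, by 0.10 (-0.19 to 0.40). These 4 genes had the same pattern over the mice, higher with LDL in mice 1 and 3 and lower in mouse 2.

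Lower mean values were seen for Lss, the cyclase that forms lanosterol, at -0.16 (95% interval -0.56 to 0.25), and for Ebp, the sterol isomerase, at -0.18 (-0.48 to 0.13). Nsdhl, the sterol dehydrogenase that works just before Hsd17b7, differed by -0.12 (-0.45 to 0.20), and Dhcr7, which makes cholesterol from 7-dehydrocholesterol, by -0.16 (-0.48 to 0.15). All 4 were lower with LDL in each of the 3 mice. The C14 reductase step is shared by Tm7sf2, at -0.20 (-0.61 to 0.21), and Lbr, also a protein of the inner nuclear membrane, at -0.06 (-0.28 to 0.16). Tm7sf2 was counted at 605, 626 and 692 with PBS and 420, 662 and 620 with LDL, and its log2 differences were -0.53, 0.08 and -0.16 in the 3 mice. With the LDL library of mouse 1 left out, the mean difference was 0.0016 on the log2 scale.

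**Figure D2:**
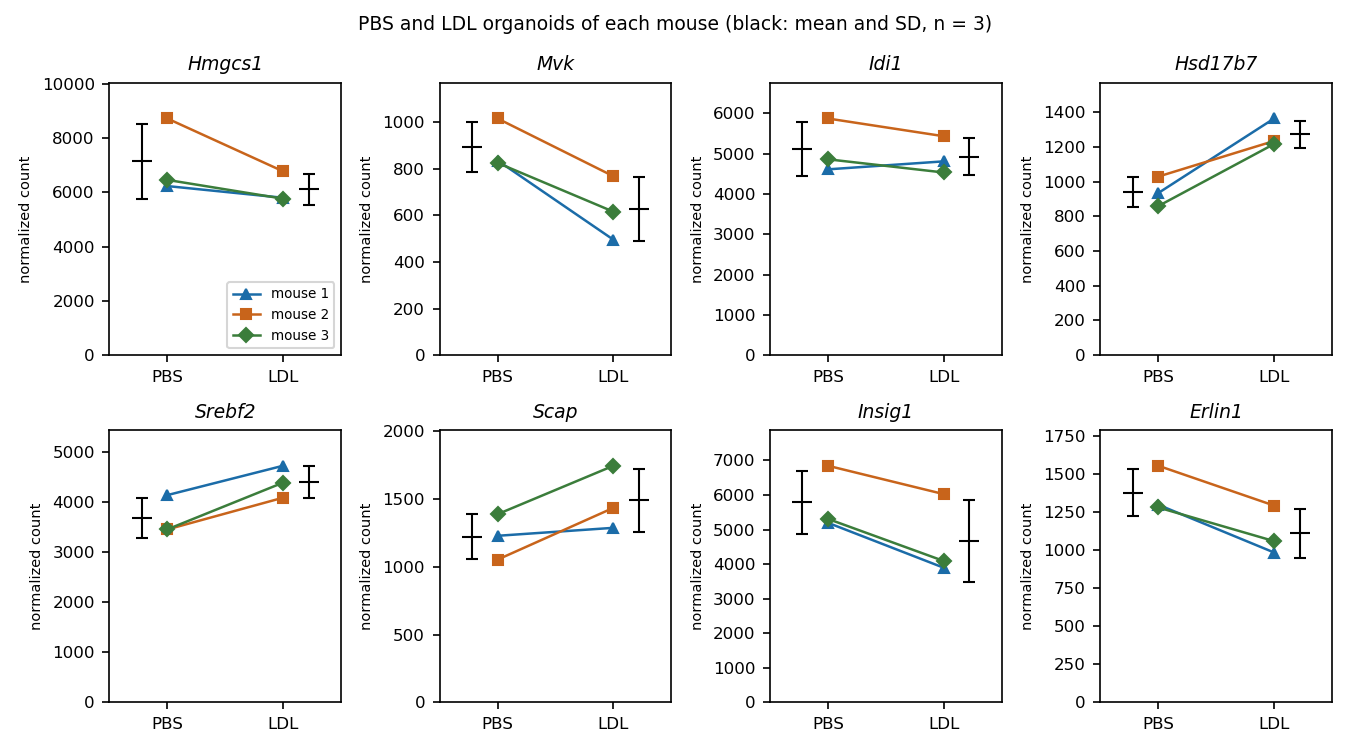
Normalized count of 8 genes on the vertical axis in PBS- and LDL-treated organoids, with 1 line for each of the 3 mice and the mean and SD of each group in black. The lines of Mvk, Insig1, Erlin1 and Hmgcs1 slope down and those of Hsd17b7, Srebf2 and Scap slope up in all 3 mice, while those of Idi1 cross between mice 1 and 3.

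Among the 9 control genes, 5 were higher and 4 lower in LDL-treated organoids, and 0 were called without the block. Srebf2, which encodes SREBP2 (ENSMUSG00000022463, GRCm39 chr15:82031382-82093201, plus strand), was counted at 4133, 3448 and 3450 with PBS and 4719, 4082 and 4382 with LDL in mice 1, 2 and 3. It was higher with LDL in each mouse, by 1.14-fold, 1.18-fold and 1.27-fold, but mouse 2 with LDL lay under mouse 1 with PBS. The log2 difference was 0.26 (95% interval 0.01 to 0.51), with a limma adjusted p of 0.237 without and 0.0538 with the block, so it did not pass in limma. With the block, edgeR gave Srebf2 an adjusted p of 0.0428 and DESeq2 one of 0.0606, so that the call at any fold depended on the tool.

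Scap, the escort of SREBP2, was counted at 1228, 1053 and 1387 with PBS and 1287, 1434 and 1744 with LDL. Its value was higher with LDL in each mouse, only slightly so in mouse 1, and the groups overlapped. The log2 difference was 0.28 (95% interval -0.06 to 0.62, limma adjusted p = 0.335 without and 0.0818 with the block). With the block, Scap passed at any fold in edgeR (adjusted p = 0.0477) and not in DESeq2 (adjusted p = 0.104). Scap shares 53 bases with Ptpn23 on the opposite strand, which had a log2 difference of 0.49, and the strand setting of the counting is not given in the sources used here, so that the part of these reads in the value of Scap was not tested.

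Insig1 encodes the INSIG that is degraded when sterol is scarce and whose gene is itself a target of SREBP2 (ENSMUSG00000045294, GRCm39 chr5:28276315-28283668, plus strand). With PBS, mice 1, 2 and 3 gave 5195, 6844 and 5307 normalized counts, and with LDL 3894, 6024 and 4090. The log2 differences in the 3 mice were -0.42, -0.18 and -0.38, and the groups overlapped because mouse 2 was highest in both. The log2 difference was -0.33 ± 0.19 (SE, n = 3 mice), which did not pass without the block (limma, adjusted p = 0.384) and passed with it (limma, adjusted p = 0.0330, SE 0.08). The promoter of Insig1, shown because the gene passed with the block, held 1 CCAAT box, starting at -216, and 3 GC boxes (GRCm39 chr5:28276160-28276459, plus strand).

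Insig1: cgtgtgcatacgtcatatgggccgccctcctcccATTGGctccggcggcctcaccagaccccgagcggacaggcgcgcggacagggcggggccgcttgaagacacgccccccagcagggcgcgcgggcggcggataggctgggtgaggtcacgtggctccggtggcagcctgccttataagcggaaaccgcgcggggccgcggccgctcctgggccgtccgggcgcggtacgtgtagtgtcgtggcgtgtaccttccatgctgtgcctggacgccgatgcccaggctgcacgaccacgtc

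Insig2, the second INSIG, was the least expressed of the 29 genes, at 209 to 244 normalized counts with PBS and 199 to 268 with LDL, and differed by 0.09 on the log2 scale (95% interval -0.27 to 0.45). It was lower in mouse 2 and higher in mice 1 and 3, and without mouse 3 its log2 difference was -0.01. The proteases that release SREBP2, Mbtps1 (site-1) and Mbtps2 (site-2), differed by 0.11 (-0.11 to 0.32) and 0.11 (-0.24 to 0.47), with Mbtps1 higher in 3 of 3 mice and Mbtps2 in 2 of 3.

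Erlin1 and Erlin2 form a complex of the endoplasmic reticulum that binds cholesterol and restrains SREBP2. Erlin1 (ENSMUSG00000025198, GRCm39 chr19:44023170-44058270, minus strand) was counted at 1299, 1556 and 1281 with PBS and at 986, 1294 and 1060 with LDL in mice 1, 2 and 3. It was lower with LDL in each mouse, although mouse 2 with LDL lay above mouse 3 with PBS. The log2 difference was -0.31 ± 0.13 (SE, n = 3 mice), with a limma adjusted p of 0.244 without the block and 0.0318 with it. DESeq2 with the block gave an adjusted p of 0.0875 for Erlin1, so that the call was lost there. For its partner Erlin2 the log2 difference was -0.01 (95% interval -0.25 to 0.24), slightly above 0 with DESeq2 and edgeR. Stard4, a carrier of cholesterol between membranes and a SREBP2 target, differed by -0.18 (-0.47 to 0.12) and was lower in 3 of 3 mice.

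The levels of the 29 genes were set side by side as normalized count per kilobase of the canonical transcript. In PBS-treated organoids, Insig1 was the highest at 2111 ± 336 (SD, n = 3), followed by Idi1 at 1975 ± 258 and Hmgcs1 at 1740 ± 336. The later enzymes Sqle (1251 ± 144), Msmo1 (1219 ± 228) and Cyp51 (1169 ± 193) formed a band with Pmvk (1347 ± 101) and Acat2 (1217 ± 134). At the low end stood Hsd17b7 (204 ± 18.5), Mvk (182 ± 21.8), Ggps1 (133 ± 5.88) and Insig2 (80.4 ± 6.30), which gave a 26.3-fold range over the list. Reads counted on the copies of a gene are left out of these levels. With its copies, Idi1 had a PBS mean of 6775 normalized counts, compared with 5115 alone, and Fdps 687, compared with 321. The places of Idi1, Fdps and the other genes with copies therefore depend on how such reads were assigned, with PBS and with LDL.

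Between neighbors in that order, the PBS-treated libraries overlapped in 22 of 28 cases, so much of the order is within the spread between mice. The 6 steps without overlap lay below Hmgcs1, Cyp51, Lbr, Mbtps2, Mvk and Ggps1. With LDL the order changed little, and no gene moved by more than 4 places: Idi1 (1902 ± 178) stood above Insig1 (1705 ± 430), and Insig2 remained the lowest at 86.2 ± 13.1. The kinase Mvk, lowest of the enzymes that lead to the isoprene unit, went to 127 ± 27.8 per kilobase with LDL.

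**Figure D3:**
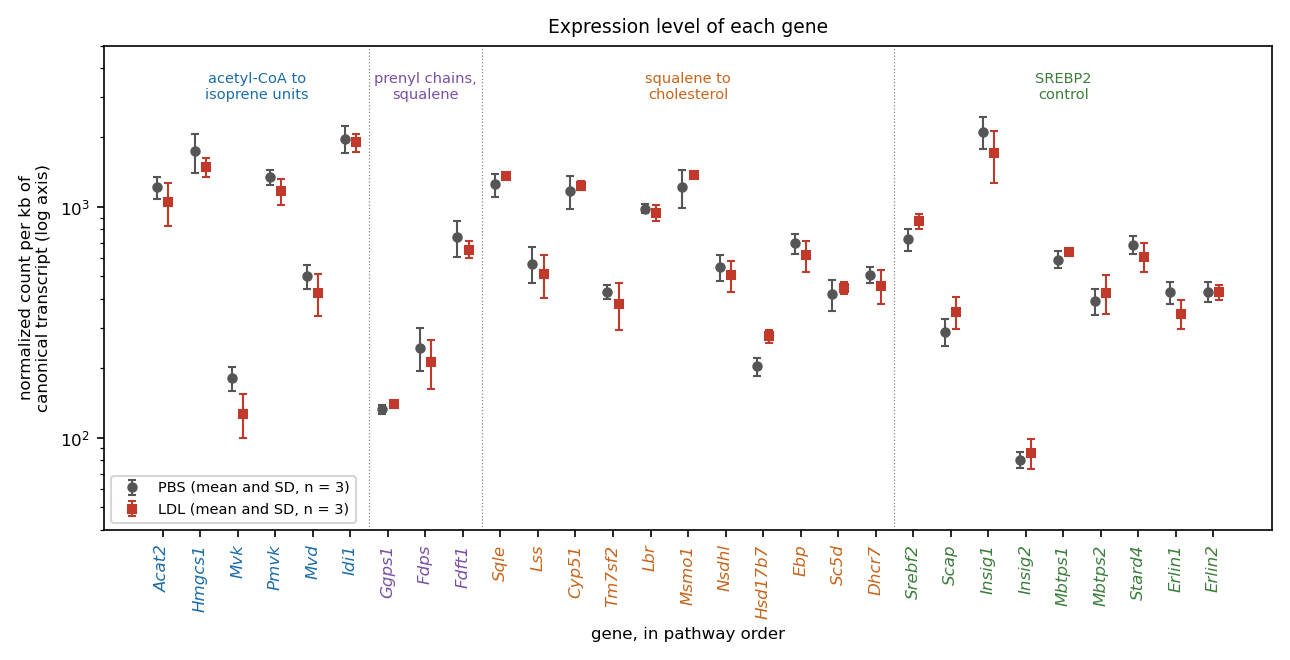
Normalized count per kilobase of canonical transcript (log axis) for the 29 genes in pathway order in PBS- (grey circles) and LDL-treated (red squares) organoids, as mean and SD of 3 mice. Levels span from 80.4 for Insig2 to 2111 for Insig1 with PBS, a wider range than any difference between the 2 treatments. Reads counted on copies of a gene are not included.

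The enzyme genes also differed between the mice. In PBS-treated organoids, 18 of the 20 enzyme genes had their highest value in mouse 2, while mouse 2 was highest for 33.8% of all genes tested. In LDL-treated organoids the counts were 15 of 20 and 40.03%. The median excess of mouse 2 over the mean of mice 1 and 3 was 0.29 on the log2 scale for the enzymes with PBS and 0.22 with LDL, larger in size than the median LDL difference of the enzymes, -0.16.

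The same library also stood apart in enterocyte markers. All 7 of those read (Alpi, Apoa1, Apoa4, Sis, Lct, Anpep and Fabp2) were highest in mouse 2 with PBS and 6 of 7 with LDL, and their summed normalized counts were 23346, 50021 and 22814 with PBS and 24725, 55403 and 29024 with LDL in mice 1, 2 and 3. The part of the enterocyte share in the levels of the enzymes was not tested, and in bulk organoids more cells of a type and more RNA per cell cannot be told apart. Between the treatments, the epithelial sum was higher with LDL in each mouse. On the log2 scale, 6 of its 8 genes were higher, among them Krt8 (0.79) and Krt18 (0.93), while Epcam (-0.12) and Cdx2 (-0.23) were lower. Krt8 and Krt18 were called higher with the block, against 5.68% of all genes. Secretory markers were read as a sum over 8 genes of Paneth, goblet and enteroendocrine cells. This sum ran from 60770 to 67128 with PBS and from 41360 to 43962 with LDL. With the block, 3 of the 8 secretory genes were called lower, against 3.46% of all genes. Single enterocyte and stem cell markers also changed. Alpi, the intestinal alkaline phosphatase, rose by 2.13 on the log2 scale (limma adjusted p = 0.0083), while Lct, lactase, fell by 1.80 in the fit with the block (limma adjusted p = 9.2e-04). Of the 7 enterocyte genes, 3 were called higher and 1 lower with the block, against 5.68% and 3.46% of all genes. Of 6 stem cell genes, Ascl2 was called higher with the block (log2 difference 1.22, limma adjusted p = 0.0033), against 5.68% of all genes. Olfm4 (-1.17, limma adjusted p = 0.0386) and Smoc2 (-0.79, 0.0254) were called lower, against 3.46%. The sum of the 6 stem cell genes was 20454 to 36440 with PBS and 16568 to 23642 with LDL. Without mouse 3, the fit with the block kept Alpi (limma adjusted p = 0.0039) and Lct (0.0351) and lost Ascl2 (0.0502), Olfm4 (0.323) and Smoc2 (0.260). The log2 differences without mouse 3 were 2.02 for Alpi, -1.72 for Lct, 1.36 for Ascl2, -0.86 for Olfm4 and -0.68 for Smoc2. The part of these markers in the LDL differences of the 29 genes was not tested. Proliferation markers summed to 71387 to 73492 with PBS and 65984 to 73294 with LDL.

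**Figure D4:**
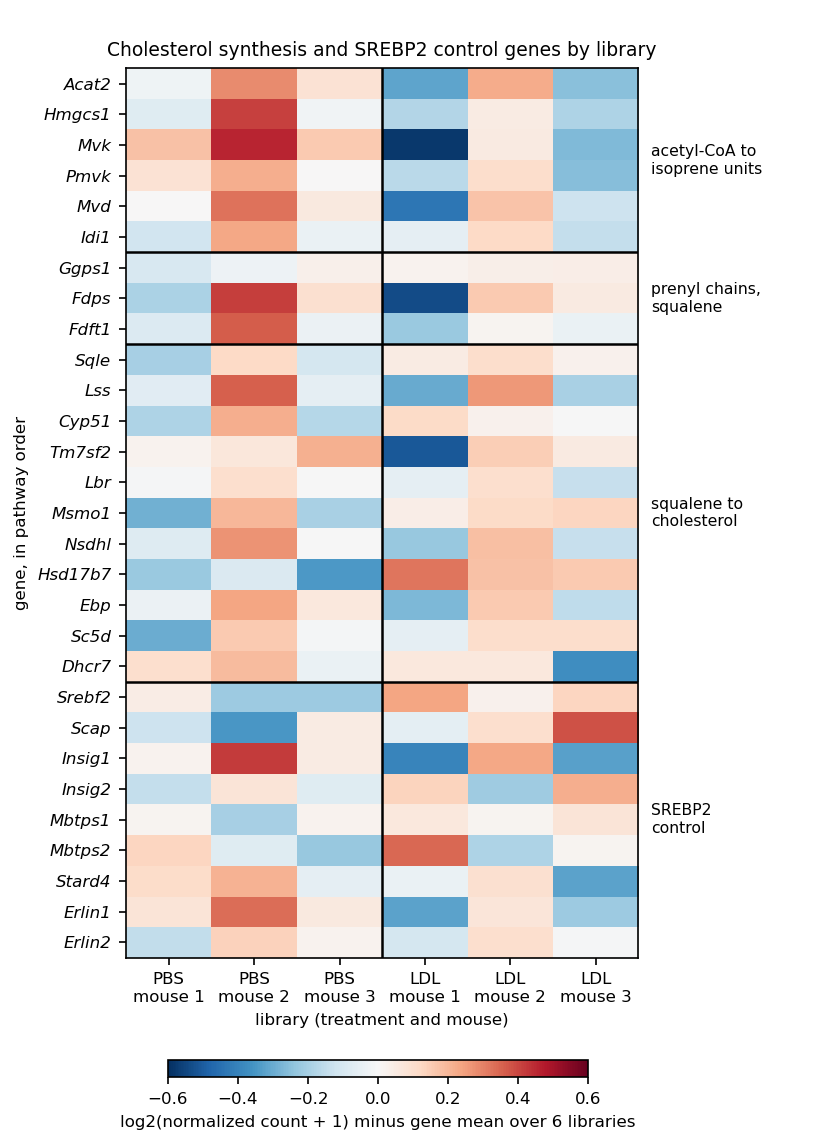
Log2(normalized count + 1) of each of the 29 genes (rows, in pathway order) in the 6 libraries (columns), minus the mean of the gene over all 6, with red above and blue below it. The PBS-treated library of mouse 2 is the highest PBS-treated library for 18 of the 20 enzymes, and the LDL-treated library of mouse 1 holds the deepest blue, at Mvk, Fdps and Tm7sf2.

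Genes joined to the pathway but outside the 29 were read from 3 lists. Of 13 partners of the pathway, among them electron donors and transcription factors, 1 was called higher and 0 lower without the block. The shares over all genes were 0.878% and 0.395%. Por, the reductase that feeds electrons to Cyp51, to squalene epoxidase and to other cytochrome P450 enzymes, rose from 2791, 3432 and 3144 normalized counts with PBS to 5561, 6751 and 6174 with LDL in mice 1, 2 and 3. The groups did not overlap, and the rise was nearly the same in each mouse, 1.99-fold, 1.97-fold and 1.96-fold. On the log2 scale it was 0.98 ± 0.11 (SE, n = 3 mice, limma adjusted p = 0.0113 without and 2.3e-04 with the block). Por lost its call without the block when the LDL library of mouse 3 (limma adjusted p = 0.0873), the PBS library of mouse 1 (0.0716), that of mouse 3 (0.0725) or both of the latter mouse (0.489) were left out. With the block and without mouse 3, the limma adjusted p of Por was 0.0199. Its log2 difference without mouse 3 was 0.985, compared with 0.981 with all 3 mice.

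Aacs, which activates acetoacetate for sterol and fatty acid synthesis in the cytosol, fell in the fit with the block by 0.67 on the log2 scale (limma adjusted p = 0.0871 without and 0.0044 with the block). Its normalized counts were 2475, 2869 and 2394 with PBS and 1295, 1987 and 1635 with LDL, with no overlap. Without mouse 3 the log2 difference of Aacs was -0.73 and the block gave an adjusted p of 0.0704.

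Of 15 genes that use isoprenoids for other products, 0 were called without the block and 1 was called lower with it. With the block, 3.46% of all genes were called lower. Pdss1, which builds the side chain of coenzyme Q, was counted at 2833, 2530 and 2207 with PBS and 1314, 1852 and 1280 with LDL. All LDL-treated libraries of Pdss1 were below all PBS-treated ones, with a log2 difference of -0.78 (limma adjusted p = 0.0641 without and 0.0054 with the block). Without mouse 3, the log2 difference of Pdss1 was -0.78 and its adjusted p with the block 0.103. The other genes of this list had log2 differences from -0.33 to 0.20.

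The list of 14 genes of protein degradation at the endoplasmic reticulum, the route by which INSIG1 and enzymes of the pathway are removed, held 0 called genes without or with the block, with log2 differences from -0.15 to 0.29 and a median of 0.07. Over all genes, 0.878% were called higher and 0.395% lower without the block, and 5.68% and 3.46% with it.

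After their values were seen, 3 further genes of these lists were picked out because they passed with the block at less than 1.5-fold. Srebf1, which encodes SREBP1, a relative of SREBP2 centered on fatty acid genes, was counted at 4383, 3523 and 4271 with PBS and 2459, 3284 and 2876 with LDL, a log2 difference of -0.50 (limma adjusted p = 0.0379 with the block and 0.108 without). Its groups did not overlap, and mouse 2 showed the smallest gap. Cyb5a, an electron carrier for sterol enzymes, had a log2 difference of -0.38 (limma adjusted p = 0.0175 with the block), and Nploc4, a cofactor of the ATPase that extracts proteins for degradation, one of 0.29 (limma adjusted p = 0.0402 with the block). Without the block, the limma adjusted p was 0.362 for Cyb5a and 0.131 for Nploc4. Without mouse 3, the log2 differences were -0.47 for Srebf1, -0.39 for Cyb5a and 0.29 for Nploc4, and with the block none of the 3 passed (limma adjusted p = 0.298, 0.217 and 0.318).

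**Figure D5:**
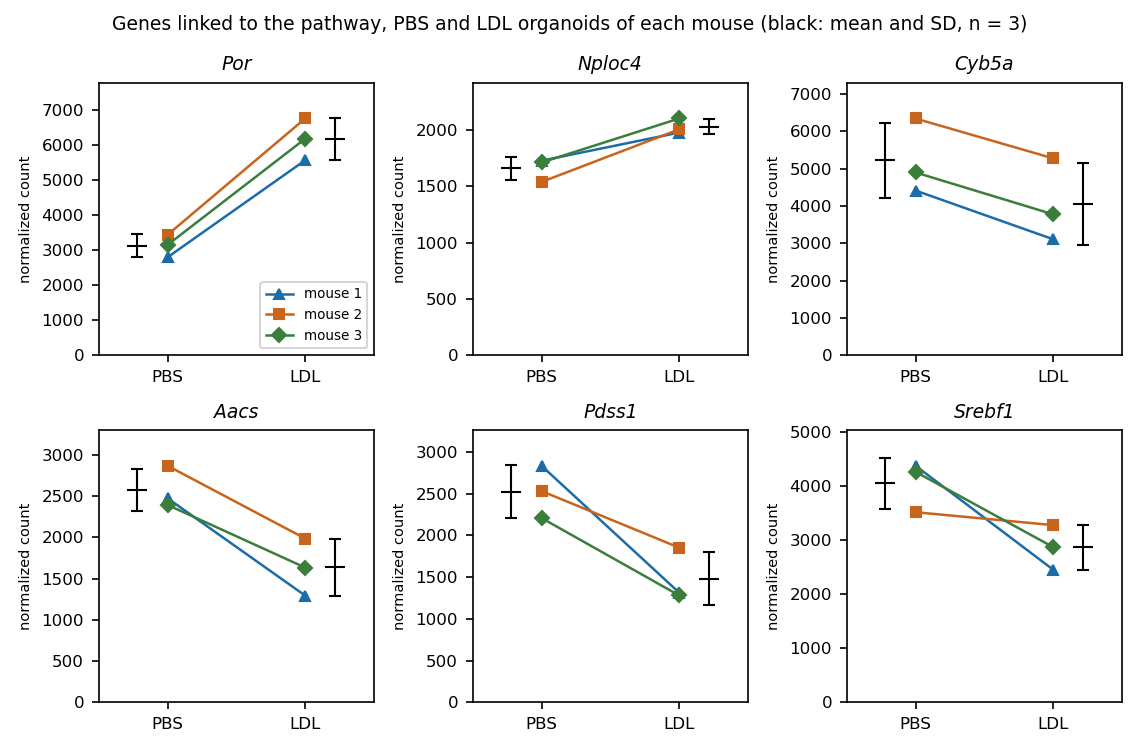
Normalized count of 6 genes linked to the pathway on the vertical axis in PBS- and LDL-treated organoids, with 1 line for each of the 3 mice and the mean and SD of each group in black. The lines of Por run nearly parallel from 2791 to 3432 up to 5561 to 6751, Nploc4 slopes up, and Aacs, Pdss1, Cyb5a and Srebf1 slope down in all 3 mice.

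Overlap with other genes limits some of these values. Cyp51 shares 7895 bases of its locus with Akap9 on the opposite strand, which had a log2 difference of 0.18, Fdft1 shares 1184 with Ctsb and Acat2 1700 with Tcp1. On the same strand, Tm7sf2 shares 532 bases with Vps51, and Fdps 104 with Gm22935, which had a mean of 13.4 normalized counts. Srebf2 shares 2110 bases with Gm49502, also on the same strand, which had a mean of 101 and a log2 difference of 0.22. The libraries were stranded, but how the counting treated strand is not given in the sources used here, so the part of these neighbors in the counts was not tested.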

How the data were processed

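RNA-Seq was performed on 3 LDL-treated and 3 PBS-treated organoid cultures. According to the methods, the authors removed ribosomal RNA, prepared stranded libraries, aligned reads to GRCm39 with STAR, counted them with featureCounts and used DESeq2; the submitters' processing notes also name bcl2fastq 2.20. The deposited signal values are normalized counts, each a read count divided by 1 size factor per library, and within a tolerance of 0.01 whole reads were recovered for 100.0% of values. Recovered were 22061545 to 31073360 reads per library. Without the block, p-values rest on the spread among the 3 libraries of a treatment and treat paired libraries as independent. With the block, they rest on how the LDL difference varied between the mice.

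Identifiers were matched to GENCODE M39 (54749 matched, 667 not). The 18459 genes whose normalized counts averaged 10 or more were analyzed as log2(normalized count + 1), so a fold change understates that of low genes, with limma 3.58.1 (eBayes with trend, two-sided, R 4.3.3), Benjamini-Hochberg adjustment over all of them, and calls at an adjusted p-value under 0.05 and more than 1.5-fold. The mouse was no term, since the methods name none. A fit with a mouse block served as alternative: the labels give same-numbered LDL and PBS libraries the same animal identifier, and their deviations from the group means correlated across genes with r = 0.484, 0.421 and 0.462. Other alternatives were DESeq2 1.42.0 and edgeR 4.0.16 (quasi-likelihood, TMM) on recovered reads, pseudocounts of 0.5 and 5, upper-quartile scaling, no filter or a minimum mean of 50, each library left out and mouse 3 left out; the block at any fold was added after seeing the data. The fits with and without the block were checked on a simulated table. Copies were found with blastn 2.17.0 over canonical transcripts.

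The genes and lists were chosen with earlier results of these data known. Named were all 29 genes, and genes of 3 further lists called with or without the block, except where the text says that they were picked after their values were seen. Some further genes of the pathway are not reported here.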

Additional observations from a re-analysis of the deposited data

How the results depend on the processing

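Of the 29 genes, 0 were called higher under any alternative at more than 1.5-fold, and 0 were called lower except when the LDL-treated library of mouse 2 was left out, where Mvk was (0 to 1 over the 6 libraries left out in turn). With the replicate block at any fold, which the labels' pairing allows, 1 was higher and 3 were lower, and without mouse 3 both counts were 0. At any fold, the block changed no other call among the 29 in limma, while in edgeR the calls it added included Mvk, Hsd17b7, Srebf2 and Scap. The median log2 difference of the 29 ran from -0.21 to -0.019 with 1 library left out, and was -0.081 without mouse 3. Over all genes, 162 were called higher and 73 lower. These counts were 1048 and 639 with the replicate block, 1526 and 1375 with the block at any fold, 265 and 77 with it and without mouse 3, 846 and 348 with DESeq2, 981 and 511 with DESeq2 and the block, 1171 and 588 with edgeR and the block, 506 and 245 with no filter, and 0 and 0 without mouse 3. They ranged from 18 to 1179 and from 2 to 1133 with 1 library left out, highest with the LDL library of mouse 2 left out and lowest with that of mouse 3. Of the 29 genes, 6 changed sign under an alternative. Erlin2 was at 0.0080 with DESeq2, 0.0097 with DESeq2 and the block, 0.012 with edgeR, 0.014 with edgeR and the block and 0.0029 without mouse 3, and Insig2 at -0.0062 without mouse 3. With 1 library left out, Idi1 ran from -0.12 to 0.053, Tm7sf2 from -0.33 to 0.0016, Sc5d from -0.022 to 0.21, Mbtps2 from -0.028 to 0.24 and Erlin2 from -0.082 to 0.060. The cause was not tested. With 3 mice a difference in 1 gene cannot pass an exact two-sided permutation test, whose smallest p is 0.1 between unpaired libraries and 0.25 within pairs.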
